A study of Mus musculus with 23 samples.

Results

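The cytosolic ribosomal protein genes, which encode the protein parts of the ribosome outside mitochondria, were followed through every library of a mouse oligodendrocyte series. Members were chosen by symbol alone: every Rps or Rpl symbol made of a number with at most a closing a, x or l, together with Rpsa, Rplp0, Rplp1 and Rplp2, and without symbols marked as pseudogenes. The rule took 83 of the 35385 symbols in the tables, of which 32 name proteins of the small subunit, 48 of the large subunit and 3 of the P stalk (Rplp0, Rplp1 and Rplp2). In the mouse annotation of build GRCm38, 80 are protein-coding genes, 2 are processed pseudogenes and 1 is a transcribed processed pseudogene. They lie on 19 chromosomes, with 14 on chromosome 7.

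The series sequenced poly(A) RNA of oligodendrocyte progenitor cells (OPCs), the dividing cells that make myelinating oligodendrocytes (OLs), in 23 libraries of 8 groups. The OPCs came from 2 lines of epiblast stem cells, EpiSC5 and 129O1 (strains 129SvEv and 129S1/SvImJ); the line behind each library was not settled here. The sorted groups held 3 libraries of magnetically sorted OPCs and 3 of OLs sorted for the surface antigen O1. In the culture groups, all OPCs had received a CRISPR lentivirus and puromycin (500 ng/mL for 96 hours), controls included, and the labels name no clones. The virus carried a non-targeting guide (control), guide 1 against Sox6 or guide 2 against Sox6, a transcription factor gene of the SoxD family. These cells were then kept for 60 hours either in OPC growth medium (3 control, 2 guide 1 and 3 guide 2 libraries) or in a medium that permits differentiation but lacks thyroid hormone (3 libraries for each guide). The latter are called OLs by the labels, although they were not sorted. No label ties a library to a separate culture, so p-values measure the spread between these libraries, which may be technical.

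A ribosome needs most of its proteins in equal numbers, and the messenger RNAs of ribosomal proteins are among the most abundant of a dividing cell. Many of these messengers begin with a C followed by a run of C and T, the 5′ terminal oligopyrimidine (TOP) tract, through which mTORC1 and the RNA-binding protein LARP1 control their translation. MYC is known to raise transcription of ribosomal protein genes and of the factors that assemble ribosomes.

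For a minority of members, counted below, the tract shows in the genome sequence at the annotated start. The windows below run from 20 bases before the start to 20 bases from it, 5′ to 3′ on the gene's strand, from RefSeq on GRCm38.p6, with an unbroken C and T run that begins at the start in capitals. The first 6 have the tract at the annotated start shown and the last 3 do not. Within 10 bases of an annotated start, Rps12 and Rpl22, which has 2 start windows, do have one, and Rpl10 does not.
Rps6 (chr4:86857348-86857387, minus strand): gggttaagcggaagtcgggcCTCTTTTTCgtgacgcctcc
Rplp2 (chr7:141447631-141447670, plus strand): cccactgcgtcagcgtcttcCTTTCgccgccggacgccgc
Rps27 (chr3:90213629-90213668, minus strand): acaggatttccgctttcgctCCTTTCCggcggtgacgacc
Rps18 (chr17:33955646-33955685, minus strand): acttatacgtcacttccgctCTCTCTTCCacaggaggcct
Rpl35 (chr2:39005112-39005151, minus strand): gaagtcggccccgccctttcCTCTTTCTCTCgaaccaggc
Rps10 (chr17:27635225-27635264, minus strand): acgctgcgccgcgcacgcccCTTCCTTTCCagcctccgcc
Rps12 (chr10:23787190-23787229, minus strand): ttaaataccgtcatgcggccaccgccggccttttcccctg
Rpl10 (chrX:74270796-74270835, plus strand): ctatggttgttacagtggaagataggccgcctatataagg
Rpl22 (chr4:152325706-152325745, plus strand): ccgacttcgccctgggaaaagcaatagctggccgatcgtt

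A start window was found for 61 of the 83 members, and for 57 of those that passed the filter on levels in the sorted cells. A C at an annotated start with at least 4 further C or T bases was present in 13 of the 57 (22.8%), in 3.01% of 27025 genes with a window, in 3.04% of the genes tested in the sorted cells, and in 0 of 69 genes for proteins of the mitochondrial ribosome. When a tract was allowed to begin up to 10 bases either side of the start, the share was 61.4% for the members. It was 34.4% for all genes, 36.9% for the genes tested in the sorted cells and 44.9% for the mitochondrial set. The motif CCGGAAG, bound by ETS-family factors, was present on either strand in the window of 300 bases (250 before the start to 50 after it) in 42.1% of members, 9.93% of all genes, 21.0% of the genes tested in the sorted cells and 37.7% of the mitochondrial set. TATAAA was present in 10.5% of members, in 15.7% of all genes, in 8.2% of the genes tested in the sorted cells and in 7.25% of the mitochondrial set, so members lay below the first background and above the others. These matches describe the sequence only; no protein binding was measured.

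Levels were read as TPM, which corrects for transcript length and scales each library to a fixed total. Together the 83 genes held 12.39 to 12.97% of the TPM scale in the sorted OPC libraries. Rplp1, an acidic protein of the P stalk that contacts elongation factors, was highest in sorted OPCs with 6935 TPM ± 134 (SD, n = 3), and Rpl41, the smallest ribosomal protein, followed with 6000 TPM ± 261. In the sorted OPCs 59 members averaged over 100 TPM, of which 42 were over 1000 TPM. Another 18 averaged between 1 and 100 TPM, the lowest of them Rpl7 with 8.55 TPM.

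Limits of quantification bear on these levels. In each library 20.4 to 22.4% of the TPM scale belonged to no listed symbol. The 290 listed pseudogenes of ribosomal protein genes held 0.828 to 1.49% of the scale in the sorted libraries, and near-identical copies can share reads. The transcript length implied by count and TPM lay more than 30 bases outside the annotated coding transcripts for 10 of 77 members. For Rplp0, the P stalk base, it was 615 bases where annotated coding transcripts have 694 to 1358, and for Rpl6 it was 532 bases where the one coding transcript has 1270. Abundant members were among the 10 too: for Rps16 it was 874 bases against 1109, and for Rpsa 1508 bases against 1599 to 1938. Members with an implied length inside the annotation varied too: Rpl7 averaged 8.55 TPM in sorted and 233 TPM in control OPCs. Rpl10 had 265.5, 24.65 and 271.3 TPM in the guide 2 OL libraries. Absolute levels, the changes of these 10 members and those of the members from 1 to 100 TPM are therefore uncertain.

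The other 6 members, Rpl10l, Rpl32l, Rpl39l, Rpl3l, Rpl6l and Rps4l, averaged under 1 TPM in every group. Of these, Rpl32l, Rpl6l and Rps4l have no coding transcript in the annotation and are the annotated pseudogenes counted at the opening. Rpl10l, Rpl39l and Rps4l were at 0 in all 6 sorted libraries and reached at most 0.682 TPM in any culture library. Rpl3l, a form of Rpl3 best known from muscle, peaked at 1.26 TPM in 1 guide 2 OL library. The partners Rpl10, Rpl39, Rps4x and Rpl3 averaged 86.3, 1171, 1463 and 56.3 TPM in sorted OPCs.

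**Figure D1:**
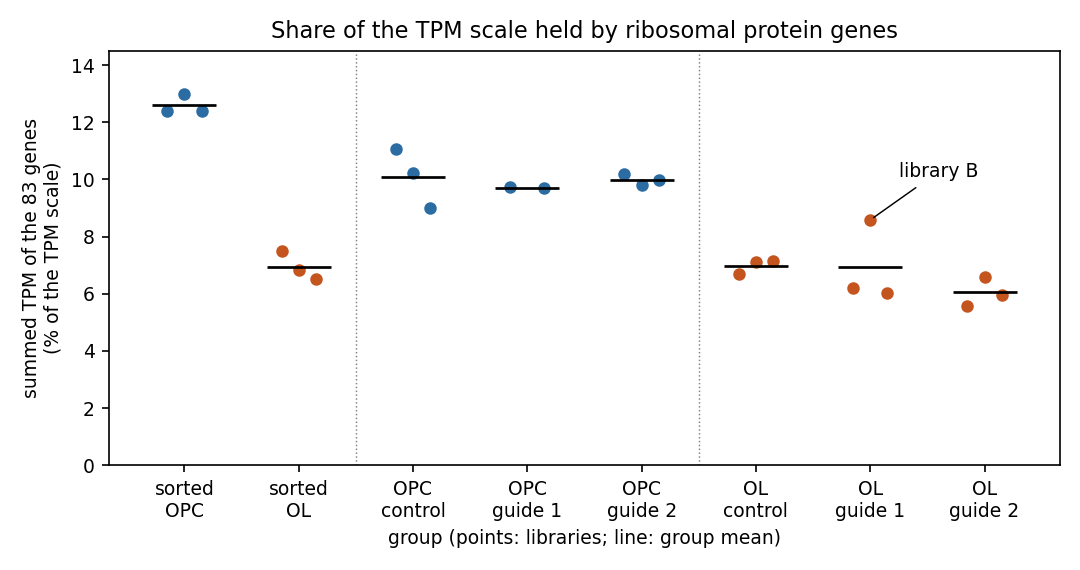
Summed TPM of the 83 ribosomal protein genes as a percentage of the TPM scale (vertical axis, linear from 0) for each of 8 groups; points are libraries and lines are group means. Sorted OPCs lie between 12.39 and 12.97% and sorted OLs between 6.52 and 7.49%; OL guide 1 library B, at 8.58%, lies above all other OL libraries.

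Ribosomal protein messenger RNA made up a smaller share of the TPM scale in OLs than in OPCs. Absolute amounts were not measured. The members' share of the TPM scale was 12.6% ± 0.328 (SD, n = 3) in sorted OPCs and 6.95% ± 0.492 (n = 3) in sorted OLs. In the control cultures it was 10.1% ± 1.04 (n = 3) in OPCs and 6.98% ± 0.240 (n = 3) in OLs, and the groups did not overlap in either pair. In these bulk samples, fewer cells of a type and less RNA per cell cannot be told apart. The ratio of the small subunit sum to the sum of the others was 0.802 ± 0.0111 in sorted OPCs and 0.763 ± 0.00314 in sorted OLs, and 0.748 ± 0.00898 and 0.707 ± 0.0104 in the control cultures.

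In the sorted cells 66 of 77 members were lower in OLs and 0 were higher (limma on log2(TPM + 1), adjusted p under 0.05). Over all 11902 genes tested, 34.4% were called lower, and 61.0% were called in either direction. The members' median log2 change was -0.90, against -0.14 for all genes, and 76 of the 77 were negative. All OL libraries lay below all OPC libraries for 67 members, where the same held for 38.0% of all genes. By subunit, 27 of 31 small subunit, 37 of 43 large subunit and 2 of 3 P stalk genes were lower, with medians of -0.94, -0.85 and -0.78. After each library was centred on the median of the genes tested, the members' median was -0.81 and 64 were lower. Of all genes, 60.2% were then called in either direction.

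Rpl10, Rps16 and Rps12 were among the members with the largest falls. Rpl10, a late-joining protein of the large subunit, had 83.7, 103 and 72.0 TPM in sorted OPCs and 32.1, 21.2 and 19.1 TPM in sorted OLs. It fell by 1.82 on the log2 scale (SE 0.211, limma adjusted p = 0.000264). It averaged under 100 TPM, and its OL libraries were all below the OPC libraries.

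Rps12 had the lowest adjusted p of the members. This protein of the small subunit's beak had 2673, 2854 and 2739 TPM in sorted OPCs and 1241, 1106 and 1120 TPM in sorted OLs, a log2 change of -1.25 (SE 0.0643, limma adjusted p = 5.13e-06). Rps16 changed by -1.27 on the log2 scale. Rpsa, the small subunit protein also known as the laminin receptor, had 1804, 1854 and 1779 TPM in OPCs and 927, 822 and 822 TPM in OLs (log2 change -1.08, limma adjusted p = 9.7e-06). Rps6, the substrate of S6 kinase below mTORC1, had 1956, 2033 and 1946 TPM in OPCs and 1252, 1111 and 1080 TPM in OLs (log2 change -0.79). Rps19, whose human counterpart is mutated in Diamond-Blackfan anaemia, changed by -1.12, and Rps27a, made as a fusion with ubiquitin, by -0.94.

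On the P stalk, Rplp1 had 6811, 7077 and 6916 TPM in sorted OPCs and 4165, 3787 and 3721 TPM in sorted OLs, a log2 change of -0.84 (SE 0.0645, limma adjusted p = 3.54e-05). Rplp2 changed by -0.78. Rplp0 was not called, with 56.4, 49.4 and 46.7 TPM in OPCs and 37.3, 27.7 and 53.7 TPM in OLs. Its groups overlapped, and its implied length is one of those outside the annotation.

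Large subunit genes with paralogues divided. Rpl3 (log2 change -0.82) and Rpl39 (-0.85) were lower, as was Rps4x (-0.88) in the small subunit. Rpl22 had 101, 106 and 106 TPM in OPCs and 91.1, 97.0 and 99.7 TPM in OLs. Its groups did not overlap, but the log2 change of -0.12 was not called (SE 0.0632, limma adjusted p = 0.135). Rps27 was not called, with 344, 218 and 209 TPM in OPCs against 89.6, 170 and 286 TPM in OLs, whereas Rps27l, a p53-responsive relative of Rps27, was lower with a log2 change of -0.96. Rpl11 was lower (-0.46) and Rpl5 was not called (-0.44, adjusted p = 0.258); both proteins join 5S ribosomal RNA in a particle that can bind MDM2.

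The other members not called were Rpl10a, Rpl27, Rpl6, Rpl7, Rps13, Rps14 and Rps15, named because they complete the 11. Rpl7 was the one member with a positive change (0.19). Of the 59 members over 100 TPM in sorted OPCs, 55 were lower, and of the 18 members from 1 to 100 TPM, 11 were lower. Among the 13 members with a TOP tract at an annotated start, 12 were lower with a median of -0.90. Among the 44 with a window but no tract there, 36 were lower with a median of -0.83. Some of those 44, such as Rps12, have a tract within 10 bases of a start, so they are not a set without tracts. This split was not tested.

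Control cultures gave the same direction. OLs were lower than OPCs for 54 of 78 members tested and higher for 0 (edgeR quasi-likelihood test, adjusted p under 0.05), where 21.6% of 14352 genes were called lower and 43.0% in either direction. The median log2 change was -0.68, against 0.02 for all genes. For 57 members every control OL library had a lower TPM than every control OPC library, as for 20.8% of all genes. By subunit, 23 of 31 small subunit, 30 of 44 large subunit and 1 of 3 P stalk genes were lower, with medians of -0.77, -0.64 and -0.70. Control OPC libraries A and C differed among themselves: against the other controls the members' median log2 difference was 0.288 in A and -0.298 in C. Their differences from the group also ran in opposite directions along transcript length (Spearman's rho over genes -0.233 in A and 0.224 in C). The part of transcript length was not tested. Without A the count of lower members was 37 and without C it was 60. Of all genes, 36.8% and 40.3% were then called in either direction. When OL guide 1 library B, described below, was left out of the shared estimate of spread, 63 of 77 members were lower. In that fit 52.4% of all genes were called in either direction.

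Rps27l, Rpl9, Rps14 and Rplp2 were among the members with the largest falls in culture. Rps27l had 15.6, 22.8 and 17.99 TPM in control OPCs and 8.75, 4.93 and 6.68 TPM in control OLs, a log2 change of -1.57 (SE 0.505, edgeR adjusted p = 0.0208). Rpl9, a large subunit protein at the foot of the stalk, had 62.5, 101 and 106 TPM in OPCs and 46.7, 28.8 and 34.5 TPM in OLs (log2 change -1.20). Rps14, a small subunit platform protein, changed by -1.05. These 3 genes are low, and none of their groups overlapped. Rplp2 had 1319, 1215 and 1095 TPM in OPCs and 706, 704 and 660 TPM in OLs (log2 change -0.99, edgeR adjusted p = 0.00312).

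Among the more abundant members, Rps6 had 2065, 1963 and 1961 TPM in control OPCs and 1185, 1243 and 1260 TPM in control OLs (log2 change -0.86, edgeR adjusted p = 0.000785), and Rpsa had 2038, 1989 and 1978 TPM against 1138, 1171 and 1217 TPM (-0.88, adjusted p = 0.00117). Rps12 changed by -0.79, Rps19 by -0.80, Rps27a by -0.86, Rpl3 by -0.74, Rpl11 by -0.67, Rps4x by -0.64 and Rpl39 by -0.57, all called. Rplp1 had 5426, 4381 and 3390 TPM in OPCs against 3137, 3541 and 3452 TPM in OLs; its groups overlapped and it was not called (-0.57, adjusted p = 0.0751). Rplp0 (-0.70), Rps27 (-1.11), Rpl5 (-0.13) and Rpl22 (-0.03) were not called. Rpl10, the largest fall of the sorted cells, had 315, 195 and 108 TPM in control OPCs and 199, 318 and 258 TPM in control OLs, with no call.

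Of the 77 members tested in both settings, 50 were lower in both, which is 75.8% of those lower in the sorted cells and 92.6% of those lower in culture. Another 16 were called in the sorted cells alone, 4 in culture alone and 7 in neither; the difference between the settings was not tested. Across members the 2 changes had a Pearson correlation of 0.192 (n = 77), and 0.357 for the 59 members over 100 TPM. These points share libraries and are not independent.

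**Figure D2:**
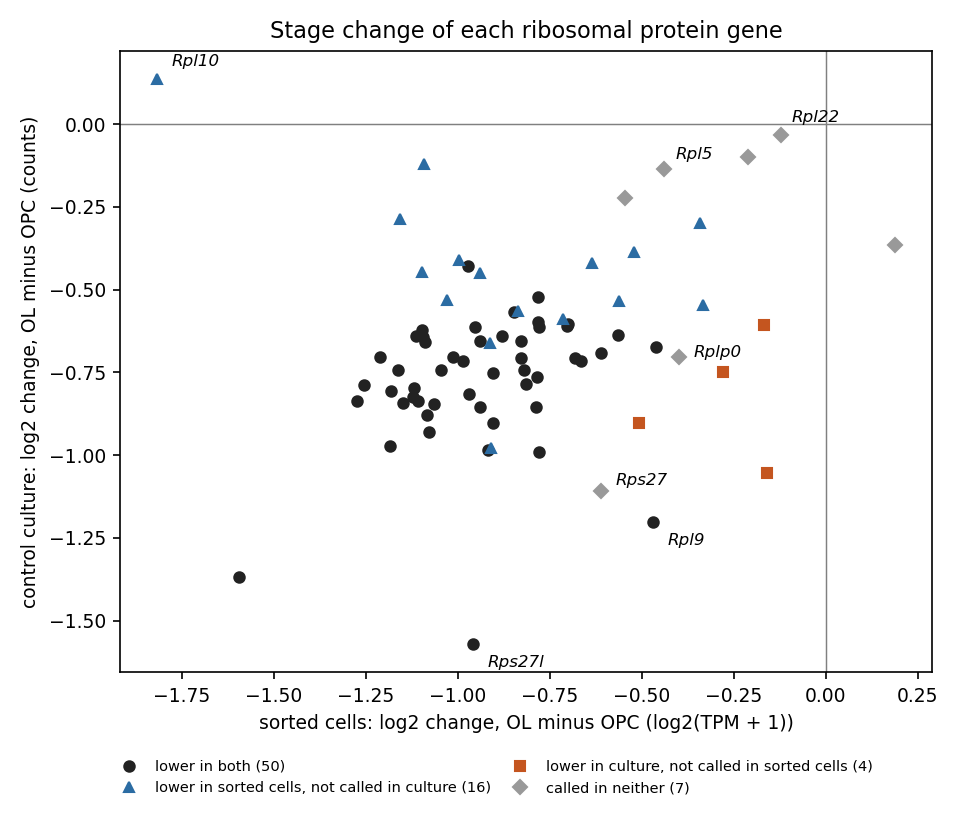
Log2 change from OPC to OL of each of 77 members in sorted cells (horizontal axis, log2(TPM + 1) scale) and in control cultures (vertical axis, counts); each point is a gene, and its colour and shape give the calls. Of these, 50 points are lower in both, while Rpl10 lies at -1.82 in the sorted cells and at 0.14 in culture, and Rpl22 lies near 0 on both axes.

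**Figure D3:**
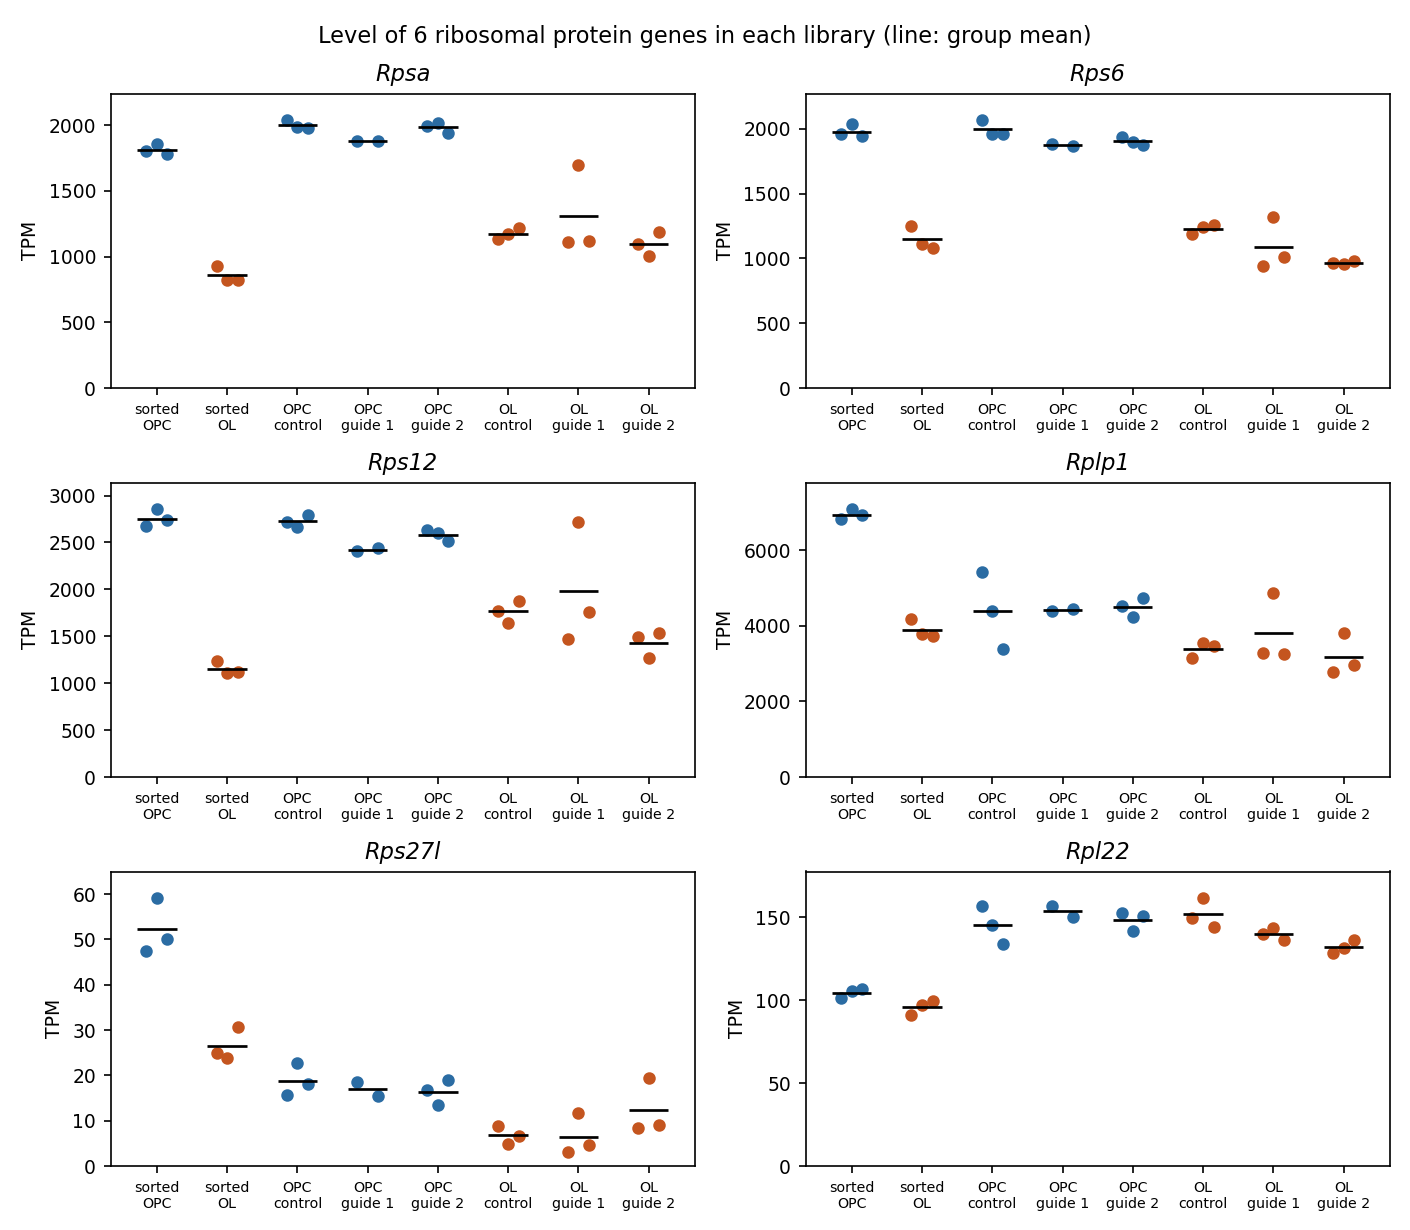
TPM of Rpsa, Rps6, Rps12, Rplp1, Rps27l and Rpl22 in each library of the 8 groups (vertical axes linear from 0); points are libraries and lines are group means. Rpsa, Rps6 and Rps12 are lower in every control and sorted OL library than in the OPC libraries, Rpl22 differs little between stages in the cultures, and the middle guide 1 OL point, library B, is the highest of its group in each panel.

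Markers of several cell types differed between the stages. The summed TPM of 8 oligodendrocyte markers was 45.8 to 75.3 in sorted OPCs and 25790 to 26180 in sorted OLs, and 64.1 to 80.8 in control OPC against 1218 to 1379 in control OL cultures; Mog averaged under 1 TPM in all 4 groups. The 10 proliferation genes summed to 1637 to 1935 TPM in sorted OPCs and 140 to 178 TPM in sorted OLs. In the control cultures they summed to 1579 to 1789 and 317 to 339 TPM. In each comparison 9 of 10 were lower, where 34.4% of all genes were lower in the sorted cells and 21.6% in the cultures. The 6 astrocyte markers summed to 479 to 536 TPM in control OPCs and 1296 to 1344 TPM in control OLs, and to 391 to 411 and 405 to 798 TPM in the sorted cells. The 6 OPC markers summed to 1804 to 2201 TPM in sorted OPCs and 1719 to 1752 TPM in sorted OLs. Despite these close sums, 5 of the 6 were called lower in sorted OLs and 1 higher, with a median log2 change of -0.82. The same markers summed to 3302 to 3940 and 3566 to 3750 TPM in control OPCs and OLs, where 3 of 6 were higher and 3 lower. Among them Pdgfra, the PDGF receptor of OPCs, had 8.91, 10.2 and 15.1 TPM in sorted OPCs and averaged under 1 TPM in sorted OLs, but had 3.79, 6.10 and 4.93 TPM in control OPCs and 26.7, 24.0 and 31.95 TPM in control OLs, the opposite direction. The 6 neuron markers summed to 287 to 382 and 281 to 322 TPM in the sorted cells and to 298 to 452 and 660 to 664 TPM in control OPCs and OLs, with Syt1 and Stmn2 under 1 TPM in all 4. All 5 microglia markers and all 5 fibroblast or pericyte markers averaged under 1 TPM in each group. The part of dividing cells and of astrocyte-like RNA in the members' fall was not tested.

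Most lists of other translation genes held more genes lower than higher in OLs, where 34.4% of all genes were lower in the sorted cells and 21.6% in the cultures. All 7 further cytosolic ribosome genes that the symbol rule does not take were lower in sorted OLs (median -0.77), and 5 of 7 in control OLs; Rack1, a scaffold on the small subunit, changed by -1.12 and -0.76. Of 7 other messengers known to carry TOP tracts, 7 were lower in sorted and 5 in control OLs, among them Npm1, a nucleolar chaperone (-1.35 and -1.22), and Nap1l1, a histone chaperone (-1.46 and -1.01). Genes for ribosome assembly and ribosomal RNA modification were lower for 27 of 39 in sorted and 32 of 40 in control OLs, with 0 higher, among them Gar1 of the box H/ACA particles (-1.67 and -1.64). Of the RNA polymerase I genes, 8 of 14 and 8 of 15 were lower and 1 and 0 higher, with Tcof1, a nucleolar co-factor, at -1.80 and -1.21.

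Initiation factors were lower for 22 of 28 in sorted OLs, with 2 higher, and for 17 of 28 in control OLs, with 1 higher; Eif4g1, the scaffold of the cap-binding complex, changed by -1.01 and -1.24. Among 9 elongation genes 5 and 4 were lower and 1 and 1 higher. The 78 mitochondrial ribosomal protein genes, whose products form a separate ribosome, had 50 lower and 9 higher in sorted OLs (median -0.44), and 33 lower and 3 higher in control OLs (median -0.39). Of 12 p53 targets, 4 were lower and 4 higher in sorted OLs and 7 lower and 0 higher in control OLs; Mdm2 rose by 1.67 in the sorted cells. Of the 13 snoRNA host genes listed, 0 were among the symbols with values, so they were not analysed here.

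**Figure D4:**
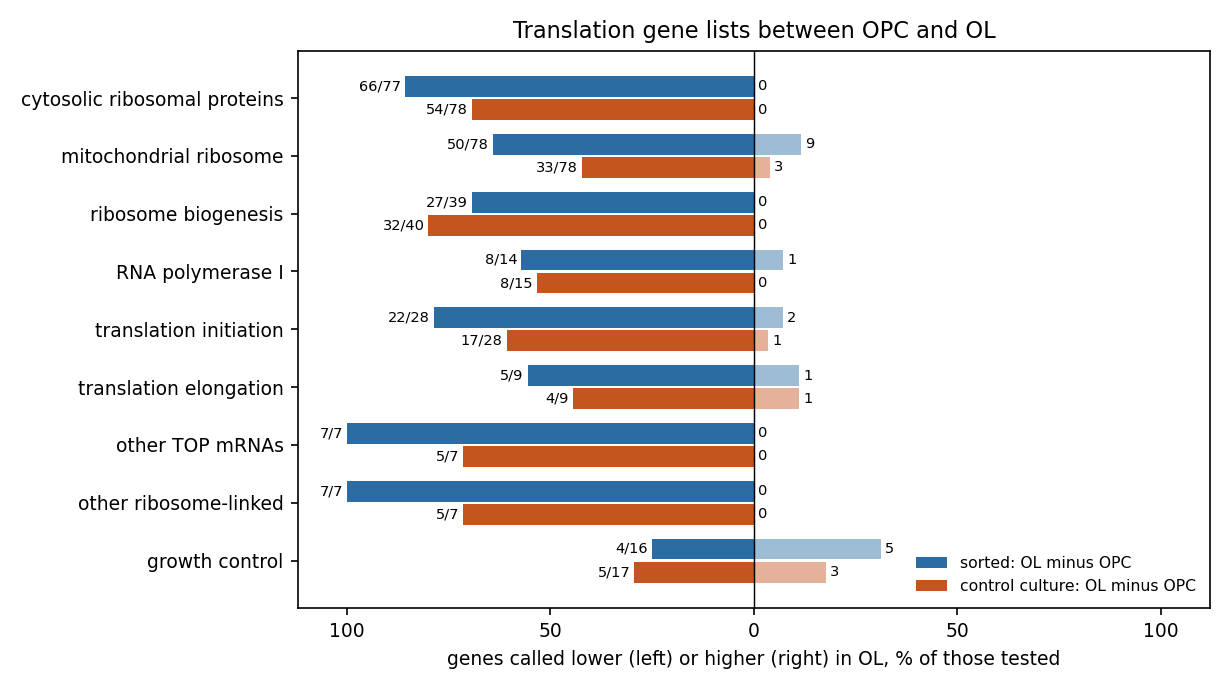
Share of each gene list called lower (bars to the left, with count and number tested) or higher (bars to the right, with count) in OLs than in OPCs, in sorted cells (blue) and control cultures (orange). The cytosolic ribosomal protein genes have 66 of 77 and 54 of 78 lower and 0 higher; growth control genes are called in both directions.

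Of 16 growth-control genes tested in the sorted cells 4 were lower and 5 higher, where 34.4% of all genes were lower and 61.0% were called. Of 17 in the cultures 5 were lower and 3 higher, where 21.6% of all genes were lower and 43.0% were called, so the counts show nothing particular to the list. Myc had 78.9, 70.3 and 60.6 TPM in sorted OPCs and 33.8, 21.99 and 25.7 TPM in sorted OLs (log2 change -1.35, limma adjusted p = 0.000391), and 164, 170 and 203 TPM against 105, 101 and 106 TPM in the control cultures (-0.91, edgeR adjusted p = 2.42e-07). Mycn stayed at or under 1.61 TPM in every library. Eif4ebp1, a repressor of cap-dependent translation that mTORC1 switches off, changed by -2.59 and -0.86, and Mxi1, an antagonist of MYC, rose by 1.72 in the sorted cells.

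The effect of the Sox6 guides was examined next. Sox6 itself had 37.5, 76.7 and 86.6 TPM in control OPCs, 31.8 and 26.8 TPM with guide 1 and 18, 21.3 and 23.6 TPM with guide 2 (log2 change -1.32, edgeR adjusted p = 0.00147). In OLs it had 132, 113 and 139 TPM in controls, 77.9, 21.3 and 63.6 TPM with guide 1 and 91.3, 83.4 and 78.6 TPM with guide 2 (-0.81, adjusted p = 0.0095). Every targeted library lay below every control of its stage.

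In OPCs the ribosomal protein genes differed little between targeted and control cells. Of 77 members 1 was lower and 0 were higher (edgeR), where 3.59% of 13358 genes were called and 1.63% were lower. The median log2 change was -0.08, with 66 members negative, against 0.00 for all genes. This median was 0.01 without control library A and -0.18 without control library C, so its sign rested on library A. In edgeR 9 members had an unadjusted p under 0.05. The share of all genes at that unadjusted cut is not given, here or below. Member counts at that cut therefore show no excess, and the percentages of genes called use the adjusted p. DESeq2 called 3 of 81, where it called 3.81% of 20670 genes. For 2 members every targeted library lay below every control, as for 3.34% of all genes. The members' share of the TPM scale was 9.71% in guide 1 (n = 2) and 9.99% ± 0.188 in guide 2 OPCs (n = 3), within the spread of the control libraries, 8.99 to 11.1%.

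The called gene was Rps12, with 2714, 2667 and 2794 TPM in control OPCs, 2406 and 2442 TPM with guide 1 and 2635, 2599 and 2520 TPM with guide 2. All targeted libraries lay below the controls, and the log2 change was -0.17 (SE 0.0373, edgeR adjusted p = 0.0432). The call was lost when any one of 7 of the 8 libraries was left out (adjusted p from 0.072 to 0.164), and kept without control library C (0.0433). With guide 1 alone Rps12 was the 1 member called (-0.25, edgeR adjusted p = 0.0336), where 2.78% of all genes were called and 1.47% were lower. Guide 2 alone called 0 members, with 4 at an unadjusted p under 0.05, where 2.04% of all genes were called. Between the guides 0 members and 0% of all genes were called by edgeR, with 6 members at an unadjusted p under 0.05. The authors' deposited table for OPCs also has 1 of 77 members under 0.05, but a different gene, Rpl9 (adjusted p 0.0295 there), and lists Rps12 at 0.151. In the counts Rpl9 was not called (-0.49, edgeR adjusted p = 0.153), and its TPM of 62.5, 101 and 106 in controls overlapped 55.6, 74.3, 58.8, 46.3 and 67.0 in targeted OPCs.

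In OLs the answer turned on 1 library. OL guide 1 library B held 8.58% of its TPM scale in members, against 6.197 and 6.03% in the other guide 1 libraries. Against the other guide 1 libraries its members' median log2 difference was 0.834, and its difference from its group ran against transcript length (Spearman's rho over genes -0.399, where the others in OLs ranged from -0.113 to 0.36). The transcript length implied by count and TPM had a median of 676 bases for 77 members. It was 2425 bases for 11305 genes with at least 10 counts in every control library, read in control OL library A alone. Library B also had the lowest Sox6 level of the OLs. The part of transcript length in its values was not tested beyond the settings below.

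With all 9 OL libraries 0 of 77 members were called and 2 had an unadjusted p under 0.05, where 6.50% of 13447 genes were called (edgeR); DESeq2 also called 0. The median was -0.04, with 49 members negative. The authors' deposited OL table likewise has 0 of 77 under 0.05, its lowest adjusted p being 0.129. Guide 1 and guide 2 alone called 0 members each in edgeR, with 1 and 2 at an unadjusted p under 0.05, where 4.92% and 4.44% of all genes were called. The guides' medians differed in sign: guide 1, library B included, had 0.12 with 62 of 77 members positive, and guide 2 had -0.19 with 67 of 77 negative. Between the guides edgeR called 0 members, with 6 at an unadjusted p under 0.05, and 0 of 13447 genes in all.

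Without library B, 20 of 77 members were lower in targeted OLs and 0 higher, where 8.60% of 13810 genes were called lower and 16.9% in either direction. The median log2 change was -0.21, against -0.02 for all genes, and 69 members were negative. By subunit 11 of 31 small subunit, 9 of 43 large subunit and 0 of 3 P stalk genes were lower. For 29 members every targeted library lay below every control, as for 11.1% of all genes; with library B it was 3 members, and 9.78% of all genes. Guide 1 alone, now 2 libraries, called 12 members lower and guide 2 alone 20, where 5.60% and 7.45% of all genes were lower and 11.4% and 15.5% were called in either direction. Between the guides edgeR called 0 members, with 4 at an unadjusted p under 0.05, and 0 of 13810 genes in all. The members' share of the TPM scale was 6.98% ± 0.240 in controls (n = 3) and 6.07% ± 0.370 in the 5 targeted libraries. With the trend on transcript length removed as well the count was 22, and with a length offset it was 15. Of all genes, 18% and 11.4% were then called in either direction.

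Rpl9, Rps3, Rps18, Rps6 and Rpl13a had the largest called falls without library B. Rps6 had 1185, 1243 and 1260 TPM in control OLs, 941 and 1011 TPM in guide 1 libraries A and C, and 965, 953 and 982 TPM with guide 2; library B had 1321 TPM. Its log2 change was -0.32 without B (SE 0.0357, edgeR adjusted p = 0.000353) and -0.15 with B (adjusted p = 0.734). Rps18, at the head of the small subunit, had 1692, 1859 and 1913 TPM in controls, 1511 and 1459 TPM with guide 1, 1371, 1427 and 1395 TPM with guide 2, and 2134 TPM in B. Both genes were below all controls in each targeted library other than B and above them in B.

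Rps3, an mRNA-entry protein of the small subunit, had 763, 815 and 937 TPM in controls, 627 and 583 TPM with guide 1, 587, 533 and 669 TPM with guide 2, and 785 TPM in B (log2 change -0.51 without B). Rpl9 had 46.7, 28.8 and 34.5 TPM in controls and 25.1, 13.7, 25.4, 15.3 and 22.7 TPM in the targeted libraries other than B (-0.78). Rpl13a, a large subunit protein, changed by -0.30. Rps4x (-0.25), Rps19 (-0.27) and Rps27a (-0.27) were also lower, while Rpsa (-0.05), Rplp1 (-0.05) and Rplp2 (0.00) were not called.

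**Figure D5:**
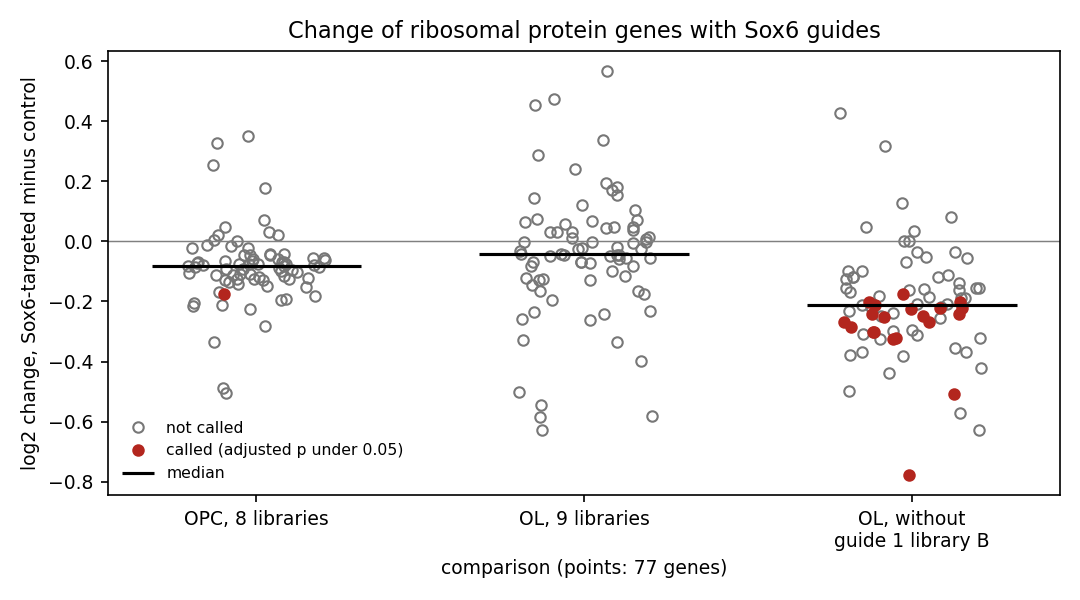
Log2 change with Sox6 guides against control (vertical axis) of 77 ribosomal protein genes in OPCs, in OLs with all 9 libraries, and in OLs without guide 1 library B; filled points passed an adjusted p of 0.05 and lines are medians. The medians are -0.08, -0.04 and -0.21, with 1, 0 and 20 genes called.

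The response of OLs was also set against that of OPCs in 1 fit. Of 78 members 0 were called, with 1 at an unadjusted p under 0.05, where 1.69% of 14352 genes were called (edgeR); DESeq2 also called 0. Without library B edgeR called 0 of 77, with 4 at an unadjusted p under 0.05, where 4.46% of all genes were called. The median difference was 0.08 with library B and -0.11 without it. A different response of the members in the 2 stages was therefore not shown.

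Beside the members, Myc was lower in targeted OLs, with 55.2, 50.7, 54.8, 57.2, 50.3 and 56.1 TPM in the 6 targeted libraries against 105, 101 and 106 TPM in controls (log2 change -0.95, edgeR adjusted p = 0.00023), library B included. In OPCs it was not called (-0.03, adjusted p = 0.805), and the difference between the stages was (-0.89, adjusted p = 0.000305). Eif4ebp1 rose by 0.88 and Rps6kb1, which encodes an S6 kinase, fell by 0.40 in targeted OLs. The proliferation genes summed to 184 to 240 TPM in targeted and 317 to 339 TPM in control OLs. Of these 10 genes 7 were lower, where 6.50% of all genes were called in either direction. Ribosome assembly genes had 1 of 40 lower with all libraries (Nolc1, -0.29) and 15 of 40 without library B, among them Nop56 of the box C/D particles (-0.59). Without library B the calls over all genes rose too, from 6.50% to 16.9% in either direction, and 8.60% were lower. Mitochondrial ribosomal protein genes had 0 of 78 called with all libraries and 2 lower and 2 higher without library B. The astrocyte markers summed to 1597 to 1762 TPM in targeted OLs and the oligodendrocyte markers to 1122 to 1763 TPM; their part in the members' values was not tested.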

How the data were processed

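The submitters' processing notes name Salmon 0.14.1, DESeq2 and build mm10. The authors deposited estimated counts and TPM per symbol for the 17 culture libraries and TPM for the 6 sorted libraries, whose depth is unknown; they also deposited tables of log2 fold changes with an adjusted p-value, given here as theirs. The kit named in the labels' protocols marks no strand. Culture libraries held 13124580 to 18551822 counts.

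Estimated counts were rounded, filtered with filterByExpr (minimum count 10, total 15), scaled by TMM and tested with the quasi-likelihood test of edgeR 4.0.16 in R 4.3.3, with 1 coefficient per group and each stage alone; stage and stage-by-guide contrasts used both tables in 1 fit, so table and stage cannot be told apart. Sorted TPM were tested as log2(TPM + 1) with limma 3.58.1 (mean-variance trend) for genes of at least 1 TPM in at least 3 libraries; fold changes there understate low genes. P-values are two-sided and adjusted by Benjamini-Hochberg over all genes, threshold 0.05. DESeq2 1.42.0 was an alternative. Scripts were tested on simulated data. Members and lists were chosen with earlier results of these data known.

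Members were named when among the 5 largest called rises or falls of a comparison, when highest or lowest in sorted OPCs, or as fixed genes (Rpsa, the P stalk, Rps6, Rps19, Rpl5, Rpl11, Rps27a and paralogue pairs); some are not reported here. Column letters A, B and C were not tied to the labels' replicate numbers. Same-letter libraries of different groups had deviations correlated by -0.0408 to 0.0909, which cannot settle that mapping. Start windows are RefSeq's, on GRCm38.p6.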

Additional observations from a re-analysis of the deposited data

How the results depend on the processing

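Over the settings run, 64 to 69 members were lower in sorted OLs, where 37.2 to 61.8% of all genes were called in either direction. In control OLs the count was 54 to 56 across settings and 37 to 63 when 1 library was left out. There 25.3 to 46.9% and 36.8 to 52.4% of all genes were called. In targeted OPCs the count of 1 was 0 without a filter, 0 under a length offset, 2 after the length trend was removed, 3 in DESeq2, 0 with both stages in 1 fit and 0 to 5 when 1 library was left out, 5 without control library C. Over all genes these settings called 2.52%, 1.77%, 4.64%, 3.81% and 1.77%, in that order. With 1 library left out it was 1.07 to 4.15%, and 4.15% without control library C. For guide 1 in OPCs a length offset gave 0 members, and removal of the length trend gave 2. There 1.25% and 4.27% of all genes were called. In targeted OLs the count of 0 was 1 with the length trend removed, 1 with both stages in 1 fit and 0 to 20 when 1 library was left out. Guide 1 library B alone gave the 20. Over all genes 11.5% were called with the length trend removed and 11.2% with both stages in 1 fit. With 1 library left out it was 2.56 to 16.9%, and 16.9% without B. With B left out the member count was 22 after removal of the length trend and 15 with a length offset, both chosen after seeing the data. There 18% and 11.4% of all genes were called. For guide 1 and guide 2 in OLs the member count was 1 each with the length trend removed, and 12 and 20 without library B. Over all genes 8.68% and 8.53% were called with the trend removed, and 11.4% and 15.5% without library B. The cause was not tested.

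With the column letter as a replicate block, the count was 0 in targeted OPCs, where Rps12 was no longer called, and 0 in targeted OLs. It was 55 in control OLs, 65 in sorted OLs and 0 for the difference between stages. Over all genes the shares called were 2.05%, 4.51%, 42.4%, 59.6% and 1.28%, in that order. Changes of uncalled genes in control OLs turned direction: Rpl22 was 0.016 with library totals and -0.143 to 0.0719 when 1 library was left out, Rpl10 was -0.19 to 0.63, and Rpl5 was -0.27 to 0.00077. Sorted libraries have no counts, so their depth sets no limit that could be given here.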
